A study of Homo sapiens with 12 samples.

Results

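KD1, a clone of Rh30 cells in which PAX3-FKHR was stably knocked down, was compared on 4 of the 12 arrays of the series with WT, the untransfected parental Rh30 cells. These 4 arrays were chosen by their labels, as 2 biological replicates, each hybridised once with KD1 in Cy5 and once with the dyes swapped. Rh30 is an established human line of alveolar rhabdomyosarcoma, a muscle-like tumour of the young. KD1 carried a retroviral pSUPER.retro.puro vector that expressed an shRNA against the fusion and was kept in puromycin at 1 μg/mL. WT carried no vector and received no puromycin, so knockdown, vector, selection and the isolation of 1 clone all differed between the cultures and cannot be told apart here. Both were grown for 24 hours before RNA was taken, and 500 ng of RNA entered each labelling. The other 8 arrays compared KD1 or WT with CON, a control clone that carried the vector with a non-targeting shRNA and was also kept in puromycin. All GeneName entries with ControlType 0 were described, 41000 probes for 30238 names.

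PAX3-FKHR joins the DNA-binding paired box and homeodomain of PAX3, a transcription factor of muscle precursor cells, to the activation domain of FKHR (FOXO1). The fusion protein is a stronger activator than PAX3, is found in most alveolar rhabdomyosarcomas, and is known to hold tumour cells in a myoblast-like state. Skeletal muscle differentiation ends with the genes of the sarcomere, the contractile unit built from actin, myosin, troponin and Z-disc proteins.

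In KD1, the hyaluronan receptor LAYN, the receptor subunit NETO2, the matrix genes FBN2 and COL2A1, the binding protein IGFBP2 and the growth factor PTN were lower than in WT. CSRP3, SMPX, MYOZ2, MYH8 and MYL1, which encode proteins of muscle, were higher. Of 24884 probes bright enough to test, 261 were called (1.05%), 190 of them lower (0.764%) and 71 higher (0.285%), at an adjusted p under 0.05 by limma with Benjamini-Hochberg adjustment. Counting each of 17850 tested genes by its brightest probe, 211 were called (1.18%), 151 lower (0.846%) and 60 higher (0.336%). All 261 called probes had the same sign on all 4 arrays, and the smallest of these differences was 1.16 on the log2 scale. The median called difference was -2.14 among lower probes and 1.92 among higher ones, against 0.01 over all tested probes. By the fold, sign and brightness criteria of the study's methods, applied to KD1 vs. WT alone (a mean of at least 2-fold with the same sign on all 4 arrays), 471 genes were lower (2.64%) and 371 were higher (2.08%). Values below are log2 KD1 over WT, as mean ± SD of 2 replicates, and each replicate is the mean of a dye-swap pair. The p-values rest on the spread of all 3 comparisons, including those with CON, and not on this SD alone.

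The replicates stood apart from each other. Over the tested probes their values correlated at r = 0.39 across probes, which are not independent replicates, and 10850 probes had opposite signs in the 2 replicates. Within replicate 1 the dye-swap pair correlated at 0.83, and within replicate 2 at 0.45. At least 2-fold differences were seen for 1892 probes in replicate 1 and 2010 in replicate 2, of which 516 were shared in sign. Here and below, leaving out a replicate took out its KD1 vs. WT value alone. Both values of each comparison with CON stayed in the fit. The spread of the 1 remaining KD1 vs. WT value then came from the comparisons with CON, and fewer probes were called in either direction. With normexp background correction and loess, limma called 1 probe lower and none higher, while 4358 probes had an unadjusted p under 0.05, against 4283 before. The adjusted p-values also rest on the residual degrees of freedom, set to 2 because the RNAs of the 3 comparisons are shared, and with 3 in their place 119 probes were lower and 35 higher. Under normexp and loess all 261 called probes kept their direction. At an unadjusted p under 0.05, 9.20% of tested genes were lower and 8.13% higher, the shares beside which the counts at that threshold below are set.

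**Figure D1:**
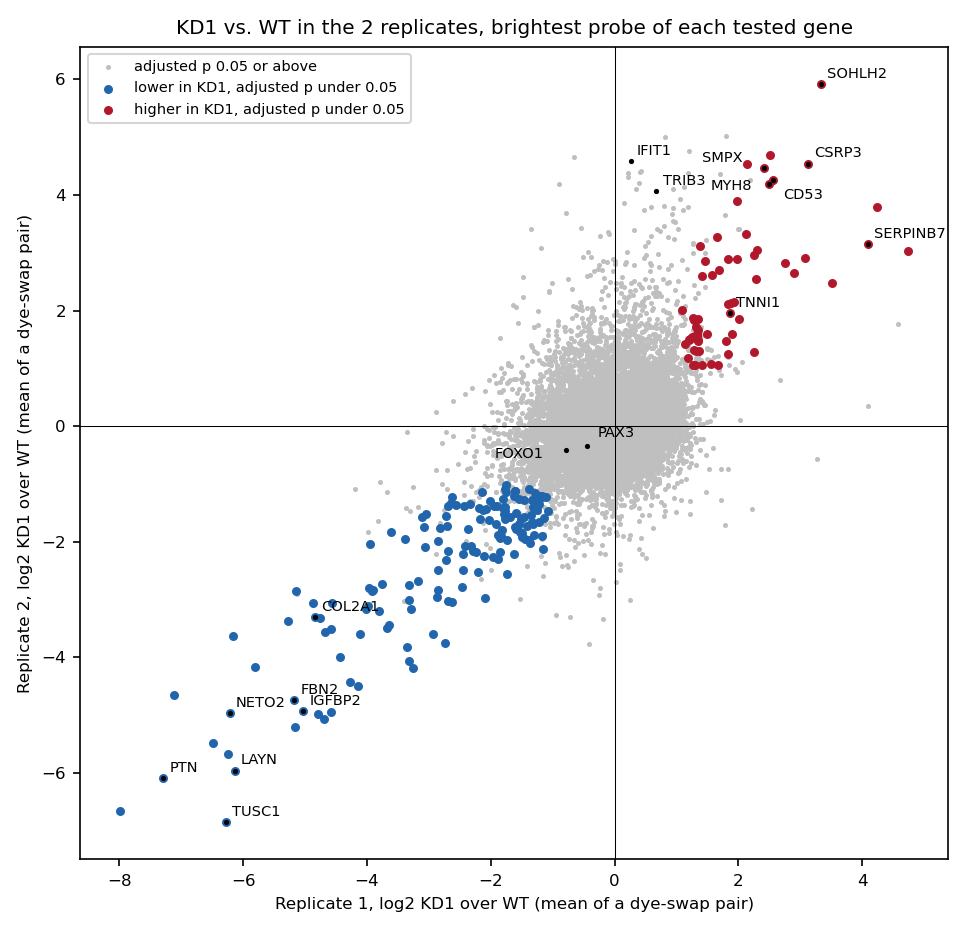
Each point is the brightest probe of a tested gene, with its log2 KD1 over WT in replicate 1 on the x axis and in replicate 2 on the y axis. Blue and red points are the 151 lower and 60 higher genes at an adjusted p under 0.05, and IFIT1 and TRIB3 lie high in replicate 2 and near 0 in replicate 1.

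The targeted gene was read first. PAX3 gave -0.45 and -0.45 in replicate 1 and -0.34 and -0.32 in replicate 2, a mean of -0.39 ± 0.08 (n = 2, limma adjusted p = 0.374). FOXO1 gave -0.70 and -0.88 in replicate 1 and -0.19 and -0.64 in replicate 2, a mean of -0.60 ± 0.26 (adjusted p = 0.273). These are the brightest probes, and neither passed the test. The second PAX3 probe gave 0.48 and 0.04 in replicate 1 and -0.11 and -0.18 in replicate 2 (adjusted p = 0.930), and the other one had a mean of -0.25 ± 0.05 (adjusted p = 0.551). The second FOXO1 probe gave -0.32 and -0.59 in replicate 1 and -0.38 and 0.09 in replicate 2 (adjusted p = 0.524), so the arrays of both genes lay on either side of 0. The probes carry the names of the partner genes, so the unrearranged PAX3 and FOXO1 transcripts can also be counted, and where they lie relative to the fusion point was not determined here. The study measured the fusion itself by RT-PCR and Western blot, and reported its mRNA and protein as lower in KD1 than in CON. GAPDH (-0.25 ± 0.07) and ACTB (-0.50 ± 0.52), both common loading controls, did not pass the test.

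The cell line was checked against its markers. Of 13 rhabdomyosarcoma markers, 12 were well above background on all 4 arrays in KD1 and 11 in WT. TFAP2B, which marks fusion-positive tumours, reached that level on no array of either culture. In each culture 8 of 11 leukocyte, 6 of 10 epithelial and 3 of 10 fibroblast markers did so on all 4 arrays. Of 9 endothelial markers 7 did in KD1 and 6 in WT, so this level alone does not tell cell types apart. MYOD1, the myoblast determination factor, gave 0.07 ± 0.08 and MYOG, the differentiation factor myogenin, 0.60 ± 0.20, and neither passed the test.

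Genes that the study names as fusion targets, with CPT1A, were examined next, a list chosen on these same samples and so no independent evidence of direction. Of 11 such genes, 9 were tested, 5 were called lower and none higher, against 0.846% and 0.336% of all tested genes. The list's median was -3.25, against 0.00 over all tested genes. All 9 were below 0 on all 4 arrays, as were 16.6% of tested genes. SEPP1 (SELENOP), which encodes the secreted selenium carrier selenoprotein P, gave -5.32 and -7.01 in replicate 1 and -4.37 and -2.87 in replicate 2. In KD1 no array held it well above background and in WT all 4 did, so the fall is given as at least 10.7-fold (adjusted p = 0.0308). CNR1, the cannabinoid receptor CB1, gave -4.47 and -5.06 in replicate 1 and -3.64 and -3.001 in replicate 2 and fell by 4.04 ± 1.02 (adjusted p = 0.00401). Replicate 1 was the lower replicate for both genes. The neurotrophin NTF3 (-3.25 ± 0.73), the bHLH factor OLIG1 (-5.15 and -2.85 in the replicates) and the HMG-box factor TOX3 (-1.87 ± 0.05) were also lower. In KD1, CNR1 was well above background on 1 array and NTF3 and OLIG1 on 2 arrays each. The sizes of these 3 falls therefore rest in part on signal near background. Second probes, well above background on all arrays, disagreed for CNR1 (-0.79 ± 0.20, adjusted p = 0.162) and for OLIG1 (-0.05 ± 0.30, adjusted p = 0.936), whereas that of TOX3 was lower too (-2.39 ± 0.12). The heparan sulphatase SULF2 gave -3.21 ± 0.26 with an adjusted p of 0.0807, and its 4 arrays ranged from -3.43 to -2.89. Its SD was 1.89 for KD1 over CON and 2.23 for WT over CON, and the p-value rests on all 3 comparisons. MXRA5 (-2.25 ± 0.81, adjusted p = 0.0539), EYA2 (-4.01 ± 1.58, adjusted p = 0.0769) and ALDH1A3 (-1.40 ± 0.07, adjusted p = 0.131) did not pass. EYA2 was well above background in KD1 on 1 array. Without replicate 1 none of the list was called and without replicate 2, 2 were, and normexp left none, while all 9 stayed below 0 in both replicates. Of a further 36 fusion targets listed from general knowledge, 32 were tested and 1 was called lower, against 0.846% of all tested genes. It was the forkhead factor FOXF1, at -2.01 ± 0.24 (adjusted p = 0.0155).

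CPT1A, the outer-membrane enzyme that commits long-chain fatty acids to mitochondrial oxidation, was outside the tested probes because its signal did not clear the negative controls on all 4 arrays. Its brighter probe gave -3.29 and -4.02 in replicate 1 and -3.37 and -3.93 in replicate 2. For that probe KD1 reached the background threshold on no array and WT on all 4, which bounds the difference at 3.93-fold or more, with no test. The other CPT1A probe gave -0.39 ± 0.76, so the 2 probes disagreed in size. Of 31 genes of fatty acid oxidation, 28 were tested and limma called none in either direction, with 1 lower and 1 higher at an unadjusted p under 0.05, both fewer than the 9.20% and 8.13% of all tested genes. Their median was -0.02.

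Among genes measured well above background in both cultures on all arrays, LAYN showed the largest fall. LAYN encodes layilin, a membrane receptor for hyaluronan, and its probe lies at chr11:110936670-110936729 (NCBI36). It gave -6.13 and -6.15 in replicate 1 and -6.20 and -5.71 in replicate 2, a 66.2-fold fall (mean -6.05 ± 0.13, adjusted p = 7.66e-05). Its 4 arrays lay within a narrow band. NETO2, an auxiliary subunit of kainate receptors, gave -6.31 and -6.12 in replicate 1 and -5.05 and -4.87 in replicate 2 (adjusted p = 0.000689). Its second probe, measured in KD1 on 2 arrays, gave -5.14 ± 1.30, so both probes fell together. A second LAYN probe, annotated on the opposite strand, gave -0.68 ± 0.31.

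FBN2, fibrillin-2 of the microfibrils, gave -4.88 and -5.48 in replicate 1 and -5.07 and -4.39 in replicate 2 and fell by 4.96 ± 0.32 (adjusted p = 0.000374). COL2A1, the type II collagen typical of cartilage, gave -4.77 and -4.91 in replicate 1 and -3.21 and -3.39 in replicate 2 (adjusted p = 0.0154). The replicates of COL2A1 did not overlap, whereas those of FBN2 did. NID2, the basement membrane linker nidogen-2, reached that threshold in KD1 on no array, and its fall was at least 5.16-fold (adjusted p = 0.0432). Of 32 genes of collagens and basement membrane, 24 were tested, these 3 were lower and none was higher, against 0.846% and 0.336% of all tested genes. The list's median was -0.80, with -1.34 in replicate 1 and -0.40 in replicate 2, and 14 of 24 genes were below 0 on all arrays, against 16.6% of all tested genes. Leaving out either replicate gave 1 call, and normexp with loess gave none. COL6A1 (-1.53 ± 0.54), COL4A2 (-1.20 ± 0.41) and COL5A2 (-1.16 ± 0.41) did not pass, with adjusted p-values of 0.0675, 0.0978 and 0.0979.

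IGFBP2, a secreted binding protein of the insulin-like growth factors, gave -4.59 and -5.48 in replicate 1 and -4.65 and -5.21 in replicate 2. It fell by 4.98 ± 0.07 (adjusted p = 0.000158) from its probe at chr2:217237331-217237390 (NCBI36). The remaining genes with the largest falls had no shared list. Among them were TSTD1 (-4.88 ± 0.27), a rhodanese-domain protein, NLRX1 (-3.85 ± 0.36), a NOD-like receptor family member of mitochondria, and MAGEH1 (-3.82 ± 1.06), a MAGE family gene of the X chromosome. SIRPA (-3.59 ± 0.33), the receptor of CD47, ZNF512B (-3.54 ± 0.14), a zinc finger protein, and SYTL4 (-3.38 ± 0.82), a Rab27 effector of secretory granules, were also among them.

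**Figure D2:**
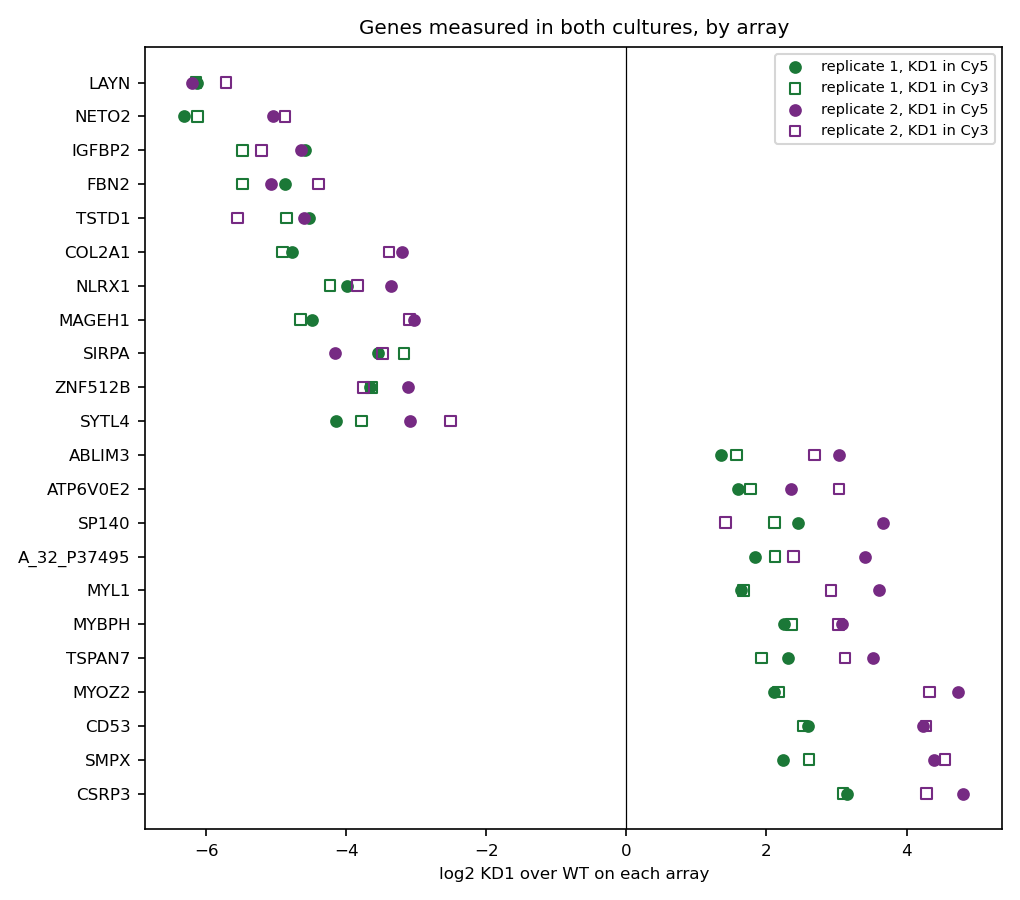
Points show log2 KD1 over WT on each of the 4 arrays for 11 of the 12 genes with the largest falls and 11 of the 12 with the largest rises among genes measured in both cultures. Green and purple mark replicates 1 and 2, filled circles KD1 in Cy5 and open squares KD1 in Cy3, and every point lies on its gene's side of 0.

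For 26 lower probes KD1 reached the background threshold on 0 of 4 arrays, so only a bound could be given, and each bound here is that of 1 probe. The C9orf125 probe (now PGAP4, a transferase of GPI-anchor synthesis) was at least 48.4-fold lower, with values of -7.24 and -6.48 in replicate 1 and -6.53 and -6.48 in replicate 2 (adjusted p = 7.66e-05). A brighter C9orf125 probe, measured in KD1 on 2 arrays, gave -7.32 ± 0.95. The brightest probe of BMPR1B, a receptor of bone morphogenetic proteins, was at least 29.0-fold lower, and that of the growth factor PTN (pleiotrophin) at least 28.4-fold, while their second probes, measured in KD1 on 1 array each, gave -3.04 ± 1.23 and -4.60 ± 0.30. TUSC1, a candidate tumour suppressor of chromosome 9, was at least 28.0-fold lower, and GPX7, a glutathione peroxidase of the endoplasmic reticulum, at least 23.3-fold. An ITPRIPL2 probe was at least 15.4-fold lower, but the brightest probe of that gene, measured in KD1 on 3 arrays, gave -3.55 ± 0.61, an 11.7-fold fall. The 6 probes with bounds had adjusted p-values of 0.00394 or below. For 3 higher probes the reverse held. SOHLH2, a bHLH factor of germ cells, was at least 12.5-fold higher, with values of 2.65 and 4.01 in replicate 1 and 5.31 and 6.53 in replicate 2 (adjusted p = 0.0123). PXDNL, a peroxidasin-like protein, was at least 5.003-fold higher and the unnamed probe A_24_P98145 at least 5.43-fold.

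Receptor tyrosine kinases and their ligands held calls in both directions. Of 35 listed genes 26 were tested, 4 were lower and 1 was higher, against 0.846% and 0.336% of all tested genes, and the median was -0.42. PTN and NTF3, given above, were among the lower ones. The receptor FGFR3 fell by 1.80 ± 0.02 (adjusted p = 0.0100), with arrays from -1.97 to -1.61. A dimmer FGFR3 probe, not tested and measured in KD1 on 2 arrays, gave -0.83 ± 0.10, so the probes differed in size. BDNF, the brain-derived neurotrophic factor, gave 1.53 and 1.16 in replicate 1 and 2.14 and 1.56 in replicate 2 and rose by 1.60 ± 0.36 (adjusted p = 0.0242). The neurotrophins NTF3 and BDNF thus did not move one way. Without replicate 1 the list held 1 lower call, and without replicate 2 it held 3.

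In other signalling and surface lists 1 or 2 genes were called. Over all tested genes, 0.846% were called lower and 0.336% higher. Of 33 tested genes of the Wnt, Notch and Hedgehog pathways, the Notch ligand DLL3 was lower (-3.03 ± 0.42, adjusted p = 0.00401), none was higher and the median was -0.46. DLL3 was well above background in KD1 on 2 arrays. The Hedgehog targets PTCH1 (-1.11 ± 0.02, adjusted p = 0.200) and GLI1 (-0.82 ± 0.01, adjusted p = 0.321) did not pass. Of 26 TGF-beta and BMP genes, BMPR1B alone was called and the median was -0.25. Of 12 tested cadherin and junction genes, only CDH6, a cadherin of developing kidney and mesenchyme, was called. It fell by 3.96 ± 1.28 (adjusted p = 0.00893), and 3 of its 4 probes were called. Of 23 tested integrin and focal adhesion genes, LAYN, given above, was lower and ITGA9, an integrin alpha chain, was higher. ITGA9 rose by 1.31 ± 0.0042 (adjusted p = 0.0307) at its brightest probe. It rose by 4.36 ± 0.53 at another, which was well above background in WT on 1 array. SERPINB7, a serine protease inhibitor, gave 4.39 and 3.80 in replicate 1 and 2.65 and 3.66 in replicate 2 and was higher (adjusted p = 0.00323). It was well above background in WT on 1 array, and was the only call among 18 tested proteases and inhibitors. CCL2, a monocyte-attracting chemokine, fell by 1.67 ± 0.21 (adjusted p = 0.0218) and was the only call among 16 tested chemokines and cytokines. GPM6B, a membrane glycoprotein of neurons and glia, fell by 4.99 ± 1.16 (adjusted p = 0.00401), and was well above background in KD1 on 1 array. GPM6B and OLIG1 were the 2 lower calls among 21 tested neuronal genes, and none was higher.

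CSRP3, SMPX and MYOZ2, which encode proteins of muscle, had large rises. CSRP3, the muscle LIM protein of the Z disc, gave 3.15 and 3.10 in replicate 1 and 4.81 and 4.28 in replicate 2 (mean 3.83 ± 1.01, adjusted p = 0.00826). SMPX, the small muscle protein of the X chromosome, gave 2.23 and 2.61 in replicate 1 and 4.39 and 4.55 in replicate 2 (mean 3.44 ± 1.45, adjusted p = 0.0249). MYOZ2, calsarcin-1 of the Z disc, gave 2.10 and 2.17 in replicate 1 and 4.74 and 4.33 in replicate 2 (mean 3.34 ± 1.69, adjusted p = 0.0323). In all 3 genes every array of replicate 2 was above every array of replicate 1. CSRP3, SMPX and MYOZ2 were named by the size of their change and are not on the muscle list counted next.

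Of 40 genes of muscle differentiation 39 were on the array and 31 were tested, of which 4 were higher and none lower, against 0.336% and 0.846% of all tested genes. Their median was 0.92, and 19 of 31 were above 0 on all 4 arrays, against 16.5% of all tested genes. MYH8, the perinatal myosin heavy chain, gave 2.53 and 2.48 in replicate 1 and 4.74 and 3.66 in replicate 2 and rose by 3.35 ± 1.20 (adjusted p = 0.0277). MYBPH, a myosin-binding protein, rose by 2.68 ± 0.53 (adjusted p = 0.0109), and MYL1, the fast myosin light chain, by 2.46 ± 1.14 (adjusted p = 0.0469). TNNI1, slow troponin I, rose by 1.92 ± 0.06 (adjusted p = 0.0208), and its arrays, from 1.85 to 2.07, did not separate by replicate. The list's median was 0.40 in replicate 1 and 1.31 in replicate 2, and 10 genes were at least 2-fold higher in replicate 1 against 22 in replicate 2. Leaving out either replicate, normexp with loess, or 3 residual degrees of freedom left none of the 4 calls.

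Other muscle genes were as large without passing the test. MYLPF, a fast regulatory light chain, gave 2.71 ± 1.32 and TNNC1, slow and cardiac troponin C, 2.70 ± 1.00, both with an adjusted p of 0.0623. NEB, the giant thin-filament protein nebulin, gave -1.16 and -1.10 in replicate 1 and 1.36 and 1.63 in replicate 2, with opposite signs in the replicates. MYF5, the early myogenic factor, gave -1.92 ± 0.71 (adjusted p = 0.0689) and lay below 0 on all arrays. Of 18 tested myogenic regulators limma called none, with 4 lower and 2 higher at an unadjusted p under 0.05 (9.20% and 8.13% of all tested genes).

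The other genes with large rises were of mixed kinds. CD53, a tetraspanin of leukocytes, gave 2.59 and 2.52 in replicate 1 and 4.23 and 4.28 in replicate 2 (mean 3.41 ± 1.20, adjusted p = 0.0231). SP140, a nuclear body protein of immune cells, rose by 2.41 ± 0.18 (adjusted p = 0.0132), TSPAN7, a tetraspanin, by 2.72 ± 0.85 and ATP6V0E2, a subunit of the proton pump V-ATPase, by 2.19 ± 0.71. A second SP140 probe, well above background on all arrays, gave 1.06 ± 0.26 and did not pass (limma adjusted p = 0.0878). The actin-binding LIM protein ABLIM3 rose by 2.16 ± 0.99 (adjusted p = 0.0413). CD53 was the only one of 8 tested leukocyte markers called, against 0.336% of all tested genes called higher. PTPRC (CD45), their defining marker, reached the background threshold on 0 of 4 arrays in both cultures. The summed signal of the 11 leukocyte markers was 12.6 and 12.4 on the log2 scale in the KD1 replicates and 13.5 and 13.4 in the WT replicates.

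Several lists had medians that differed between the replicates. Interferon-stimulated genes had a median of -0.17 in replicate 1 and 1.04 in replicate 2. Of 27 tested, limma called none, with 8 higher and none lower at an unadjusted p under 0.05 (8.13% and 9.20% of all tested genes), and 15 were at least 2-fold higher in replicate 2 against none in replicate 1. IFIT1, an antiviral RNA-binding protein, gave 0.15 and 0.38 in replicate 1 and 4.74 and 4.43 in replicate 2 (mean 2.42 ± 3.05, adjusted p = 0.225). OASL, a 2-5-oligoadenylate synthetase-like protein, gave -0.91 and -0.89 in replicate 1 and 4.60 and 3.77 in replicate 2. The signal of IFIT1 in each RNA, averaged over the arrays that carried it, was 10.3 and 14.1 on the log2 scale in KD1 replicates 1 and 2 and 10.1 and 9.52 in WT replicates 1 and 2. The KD1 RNA of replicate 2 stood above the rest. Against CON, IFIT1 was at -0.37 and 1.88 for KD1 and -0.62 and -3.31 for WT in replicates 1 and 2, so that in replicate 2 CON lay between WT and KD1.

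The integrated stress and unfolded protein response list followed the same split by replicate. Of 26 genes limma called none, with 1 lower and 11 higher at an unadjusted p under 0.05 (9.20% and 8.13% of all tested genes). The median was -0.15 in replicate 1 and 1.27 in replicate 2, and 14 genes were at least 2-fold higher in replicate 2 against 1 in replicate 1. TRIB3, a pseudokinase induced by ATF4, gave 0.56 and 0.79 in replicate 1 and 4.10 and 4.03 in replicate 2. ASNS, asparagine synthetase, gave 0.16 and 0.21 in replicate 1 and 2.80 and 2.89 in replicate 2. Among chaperones and co-chaperones of the endoplasmic reticulum on the list, HSP90B1 gave -0.69 ± 0.32, HSPA5 -0.28 ± 0.35 and DNAJB9 -0.40 in replicate 1 and 0.92 in replicate 2. Of 17465 genes measured in both cultures, 267 differed by at least 4-fold between the replicates, 230 of them higher in replicate 2.

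**Figure D3:**
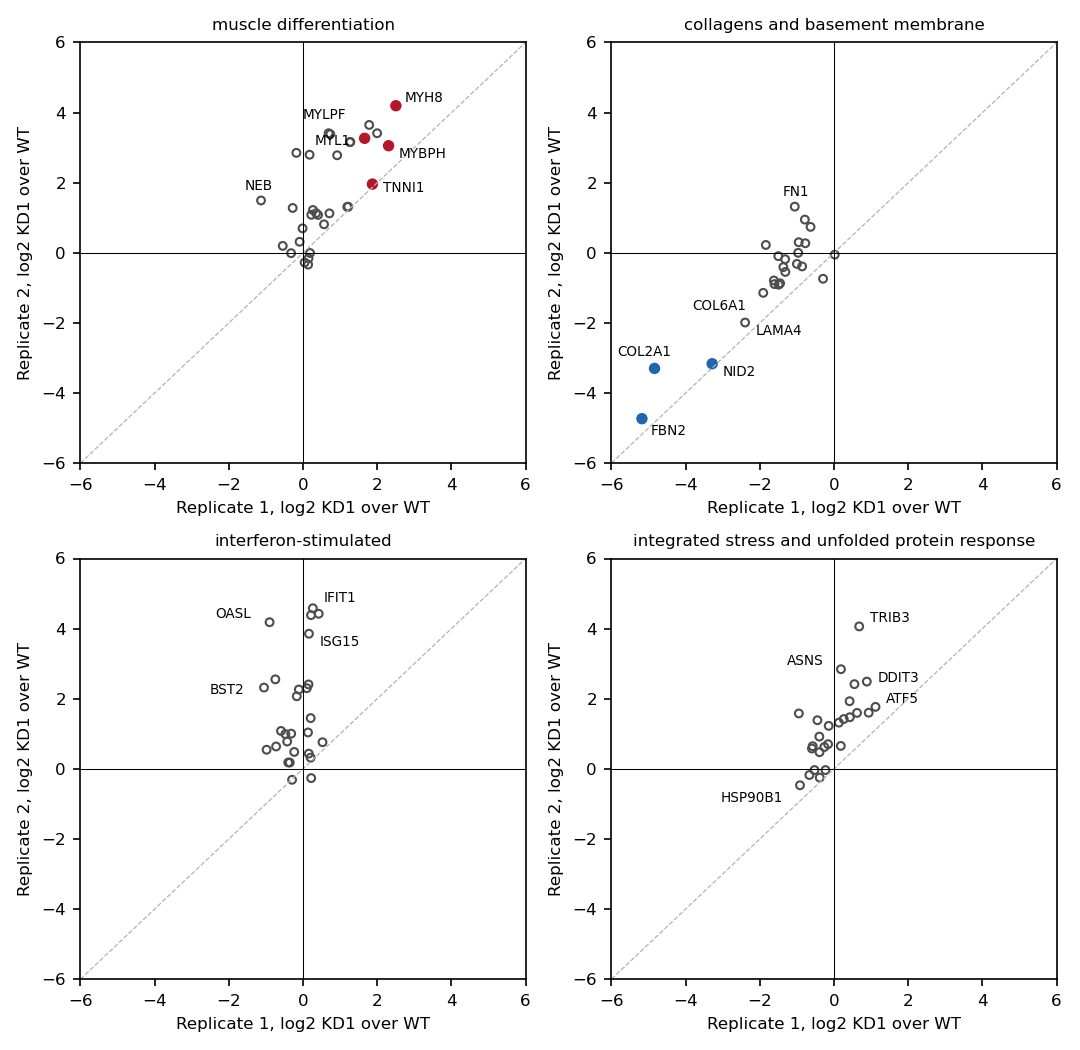
Each panel plots the tested genes of one list, with log2 KD1 over WT in replicate 1 on the x axis and in replicate 2 on the y axis. Filled points have an adjusted p under 0.05 (red higher, blue lower) and the dashed line marks equal values, and interferon and stress genes rise along the y axis near 0 on the x axis while FBN2, COL2A1 and NID2 lie low on both.

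EPCAM, KRT19 and ID1 were lower in replicate 2 than in replicate 1. EPCAM, an epithelial adhesion molecule, gave 0.83 and -0.56 in replicate 1 and -5.21 and -5.91 in replicate 2 and was not tested, being too dim on some arrays. Its signal was 7.43 in WT replicate 2 and between 1.87 and 2.06 in the remaining RNAs. KRT19, an epithelial keratin, gave 0.43 and 0.25 in replicate 1 and -3.15 and -3.19 in replicate 2. The summed signal of the 10 epithelial markers was 11.1 and 11.4 in the KD1 replicates and 11.5 and 11.98 in the WT replicates, and CDH1 was well above background on 1 WT array. ID1, an inhibitor of bHLH factors, gave -0.40 and -0.10 in replicate 1 and -3.04 and -2.82 in replicate 2 (adjusted p = 0.257). In MHC class I presentation genes replicate 2 was again the higher, with a median of -0.77 in replicate 1 and 0.04 in replicate 2. Of 17 tested limma called none, with 6 lower and none higher at an unadjusted p under 0.05 (9.20% and 8.13% of all tested genes). HLA-B gave -2.10 and -2.11 in replicate 1 and -0.50 and -0.09 in replicate 2.

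Few or no genes of the growth and metabolic lists were called. Of 32 genes of mitosis and spindle limma called none, with 8 lower and none higher at an unadjusted p under 0.05 (9.20% and 8.13% of all tested genes). However, 21 were below 0 on all 4 arrays, against 16.6% of all tested genes, and the median was -0.39. Of these KIF23 gave -0.74 ± 0.17, TOP2A -0.71 ± 0.31 and PLK1 -0.57 ± 0.45. Of 30 ribosomal protein genes and 32 of the respiratory chain limma called none, with medians of 0.17 and 0.05 and with 1 and 3 at an unadjusted p under 0.05. In cholesterol synthesis 2 of 23 genes were lower (0.846% of all tested genes), INSIG1, which retains the SREBP complex in the endoplasmic reticulum, at least 3.90-fold (adjusted p = 0.00678), and EBP, a sterol isomerase, by 1.99 ± 0.93 (adjusted p = 0.0469). The rest of the list did not follow them, with a list median of 0.27 (-0.23 in replicate 1 and 0.82 in replicate 2), 7 genes above 0 on all 4 arrays and 4 higher at an unadjusted p under 0.05. Neither call was made when either replicate was left out.

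The 8 arrays with CON showed which culture held the different level, with CON as the clone that shares vector and puromycin with KD1. The 3 comparisons share their RNAs, so their values are set side by side and no agreement between them was computed. LAYN was -6.54 and -6.02 for KD1 over CON and -0.20 and -0.17 for WT over CON in replicates 1 and 2. NETO2 was -5.53 and -4.23 for KD1 over CON and 0.84 and 0.88 for WT over CON. NLRX1, ZNF512B, C9orf125 and TUSC1 also lay at or below -3.25 for KD1 over CON and between -0.66 and 0.23 for WT over CON. For these genes WT and CON were close and KD1 stood apart. CD53 was 3.54 and 3.41 for KD1 over CON and 0.27 and -1.79 for WT over CON, and SP140 was 2.08 and 3.22 against -0.13 and 0.47.

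For other genes CON lay with KD1. IGFBP2 was -0.48 and 0.15 for KD1 over CON and 5.07 and 5.09 for WT over CON. GPX7 was 0.10 and 0.05 against 7.02 and 5.45, and TSTD1 was 0.02 and 0.81 against 4.78 and 5.78. Here WT stood apart from both clones. The same held for INSIG1 (0.07 and 0.13 against 4.86 and 2.82), FGFR3 (-0.53 and -0.26 against 1.46 and 1.54) and BDNF (-0.27 and 0.09 against -1.52 and -1.62). PTN was -0.90 and -0.77 for KD1 over CON and 5.47 and 4.29 for WT over CON. For GPX7, INSIG1 and PTN, KD1 was well above background on 0 of the 4 KD1 vs. WT arrays. Their KD1 over CON ratios thus rest on signal near background and do not show equal levels in the clones. The probes of IGFBP2, GPX7, TSTD1, INSIG1 and PTN did not enter the test of KD1 over CON.

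Muscle genes differed in where CON lay. MYBPH was -1.15 and 0.11 for KD1 over CON and -3.22 and -2.99 for WT over CON, and TNNI1 was -0.85 and -0.18 against -2.74 and -1.97. SMPX was -2.56 and -0.67 for KD1 over CON and -4.94 and -5.16 for WT over CON, so CON held the highest SMPX level. The muscle list's median was -0.19 and 0.68 for KD1 over CON and -0.80 and -1.17 for WT over CON in replicates 1 and 2. CSRP3 was 1.31 and 3.07 for KD1 over CON and -1.96 and -1.86 for WT over CON, and MYH8 was 1.65 and 3.92 against -1.07 and -1.25, so that CON lay between KD1 and WT for both. FBN2 and COL2A1 were ordered WT, CON, KD1, with FBN2 at -3.23 and -3.54 for KD1 over CON and 2.46 and 1.47 for WT over CON. The collagen list's median was 0.06 and -0.21 for KD1 over CON and 1.20 and 0.14 for WT over CON. The known targets had a median of -2.45 and -3.23 for KD1 over CON and 0.84 and -0.95 for WT over CON.

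**Figure D4:**
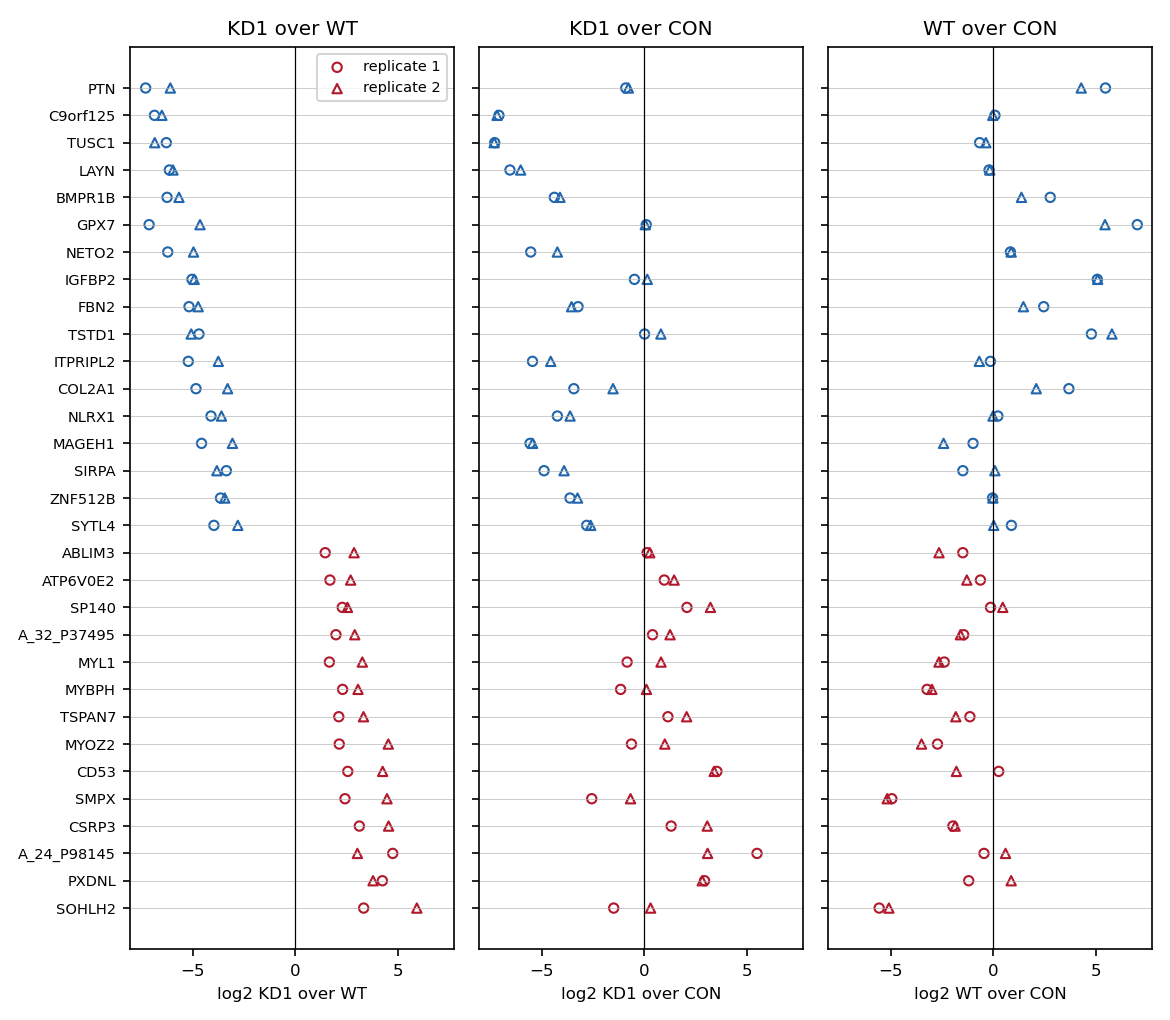
The panels give log2 KD1 over WT, KD1 over CON and WT over CON in replicates 1 (circles) and 2 (triangles) for 31 genes chosen by size of change, blue lower and red higher in KD1 vs. WT. LAYN and NETO2 lie far from 0 in the first and second panels, IGFBP2, GPX7 and SOHLH2 in the first and last.

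Since the fusion binds DNA through its paired domain and homeodomain, the 250 bases before the start site of each gene were searched on both strands for the short words that PAX paired domains and homeodomains prefer (promoter sequences of RefSeq, GRCh38.p14). The first paired word was GTTCT. The second, GTTCC, differs from it in its last letter. The other paired words searched were GTTAT and, with a different last letter again, GTTAC. The homeodomain word was ATTA, which can share letters with the neighbouring paired words. Promoters were held for 91 lower and 35 higher genes. A paired word was found in 68.1% of the lower and 77.1% of the higher promoters, against 71.3% of all 27305 promoters and 66.4% of those of tested genes. ATTA was found in 28.6% of the lower and 60.0% of the higher promoters, against 48.2% of all and 33.6% of those of tested genes. Both kinds were found in 23.1% of the lower and 54.3% of the higher promoters, against 24.9% of those of tested genes. The word CAGCTG, bound by MyoD family factors and added after the muscle values were seen, was in 39.3% of 28 muscle-list promoters, 13.8% of all promoters and 12.9% of those of tested genes. It was in 8.79% of the lower and 14.3% of the higher promoters. These shares are descriptions of the letters in the window, and no test was made. To show what such windows look like, the first 2 lower and the first 2 higher genes, in order of size among those with a window to read, that hold both kinds of word are given here, 5′ to 3′, with paired words and ATTA, on either strand, in capitals.
IGFBP2, chr2:216632578-216632827, plus strand: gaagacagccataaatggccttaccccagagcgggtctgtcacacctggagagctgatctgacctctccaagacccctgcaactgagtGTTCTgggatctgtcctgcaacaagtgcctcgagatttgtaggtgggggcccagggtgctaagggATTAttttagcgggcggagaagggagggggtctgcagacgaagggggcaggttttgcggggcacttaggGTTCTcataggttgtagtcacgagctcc
TSTD1, chr1:161038965-161039214, minus strand: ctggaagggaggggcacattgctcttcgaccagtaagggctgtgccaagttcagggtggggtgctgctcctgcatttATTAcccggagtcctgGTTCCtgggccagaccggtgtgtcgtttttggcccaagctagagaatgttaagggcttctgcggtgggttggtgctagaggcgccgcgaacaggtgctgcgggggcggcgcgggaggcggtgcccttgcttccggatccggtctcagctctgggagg
SMPX, chrX:21758117-21758366, minus strand: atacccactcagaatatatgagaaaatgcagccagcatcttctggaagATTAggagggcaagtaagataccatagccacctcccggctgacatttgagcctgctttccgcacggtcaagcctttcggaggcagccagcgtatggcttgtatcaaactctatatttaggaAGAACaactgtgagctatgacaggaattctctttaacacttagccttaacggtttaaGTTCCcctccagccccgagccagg
CD53, chr1:110870960-110871209, plus strand: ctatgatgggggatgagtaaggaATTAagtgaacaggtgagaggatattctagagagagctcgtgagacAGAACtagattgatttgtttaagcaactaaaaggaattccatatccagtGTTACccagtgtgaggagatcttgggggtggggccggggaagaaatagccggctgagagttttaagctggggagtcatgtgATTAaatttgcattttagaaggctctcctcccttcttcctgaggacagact
IGFBP2 and SMPX each hold 2 paired words and 1 ATTA, CD53 holds 2 of each and TSTD1 holds 1 of each. IGFBP2 and TSTD1 fell and SMPX and CD53 rose, and each was picked because it holds both kinds of word. NETO2, which also fell, held neither kind in its window.

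Called genes lay on most chromosomes. The X chromosome held 13 lower and 6 higher of 627 tested genes (2.07% and 0.957%), against 0.846% and 0.336% over all. Chromosome 21 held 4 lower of 190 (2.11%), and chromosome 13 held 6 higher of 298 (2.01%). The median over tested genes of a chromosome ranged from -0.22 on chromosome 21 to 0.11 on the X among the nuclear chromosomes.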

How the data were processed

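Labelled RNA of KD1 and WT was hybridised to 2-colour Agilent whole-genome arrays and scanned, and the deposited files hold the spot intensity of each channel from Agilent Feature Extraction 10.5.1.1 (per the file headers), background-subtracted and lowess-normalised by the authors. The log10 ratio columns that the authors deposited were read and not used for any value. The series table deposited by the authors holds log2 ratios of the same arrays, with a median of 0 on each, 6070 to 7446 probes at exactly 0 and a correlation of 0.903 to 0.972 with the ratios used here, and served as an alternative. Here log2 ratios were turned to KD1 over WT, spots of a probe averaged after leaving out controls and outlier flags, and each dye-swap pair averaged to 1 of 2 replicates. Probes above the 99th percentile of 153 negative controls in at least 1 channel on all 4 arrays were tested with limma 3.58.1 in R 4.3.3 (2-sided), on all 6 replicate values of the 3 comparisons with residual degrees of freedom set to 2, because the comparisons share RNAs. An adjusted p under 0.05 was called.

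Between 71.7% and 73.6% of probes in Cy3 and 64.5% and 67.8% in Cy5 were well above background, and 0 spots were saturated. The 4 arrays are dye-swap pairs of 2 biological replicates, so precision rests on the replicates and not on the number of arrays. Where 1 culture was not well above background, a lower bound was taken after Aquantile normalisation of single channels, without the spread of dye effects. Except for bounds, which are of single probes, each gene took the values of the probe with the highest mean signal. Genes were named as the 12 largest falls and rises measured in both cultures, the 6 largest bounds each way, genes named by the study, and called members of lists. A few genes that this rule covers are not reported here. Members and lists were chosen with earlier results of these data known. Replicates are labelled as biological, each on its own slide, so replicate and slide cannot be told apart. The p-values rest on the spread between replicates pooled over the 3 comparisons, including those with CON, and moderated over probes. They do not rest on the printed SD alone. Of 19229 RefSeq accessions, 18609 matched the RefSeq table. Probe positions are NCBI36, with no annotation of that build used here. The code was tested on simulated data, and figures were drawn with matplotlib 3.10.9.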

Additional observations from a re-analysis of the deposited data

How the results depend on the processing

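The direction of all 190 lower and 71 higher probes held under every alternative run, whereas the number called did not. Only normexp with loess, median centring and the series table used other array values and so could have changed a direction. The remaining runs reuse array values that already had the same sign on all 4 arrays. With normexp and loess 1 probe was lower and 0 higher (4358 at an unadjusted p under 0.05), and genes past 2-fold numbered 203 lower and 133 higher, against 471 and 371. Median centring gave 29 higher, no filter on dim probes 32 higher, the KD1 vs. WT values alone 114 higher, and 3 residual degrees of freedom 119 lower and 35 higher. With KD1 in Cy5 only, 786 were lower and 553 higher, and with KD1 in Cy3 only, 848 and 611, where the swapped arrays no longer cancel the dye. Without the filter, 598 genes were past 2-fold higher. Leaving out 1 replicate left 34 to 57 lower and 2 to 4 higher probes, and 581 to 1074 lower and 388 to 938 higher genes past 2-fold, from 2 arrays in place of 4. The model used pairs the cultures of a replicate on its arrays. With separate channels and no replicate block, 87 probes were lower and 11 higher, and 83 and 11 of these were among the 190 and 71. The deviations of the same-numbered KD1 and WT RNAs from their culture means correlated at 0.0952 across probes. Of the 56 called named probes, 55 lost their call with normexp and loess, 43 without replicate 1, 33 without replicate 2 and 25 with 3 residual degrees of freedom, and none changed sign. The cause of these changes was not tested. The filter on probes well above background on every array kept 28177 probes, more than the 24884 of the filter used, so it was not stricter. The slide gave no further setting, since leaving out a slide is leaving out a replicate.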
